A study of Mus musculus with 9 samples.

Results

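The mitochondrial ribosomal proteins are described here through their 77 nuclear genes, which are all gene symbols of the count tables that begin with Mrpl or Mrps and go on with a number and at most 1 letter. They are 77 of 24421 symbols, and 48 of them are named Mrpl, for the large subunit, and 29 are named Mrps, for the small subunit. Membership follows from the symbol alone. All 77 passed the filter on low counts, so no member was lost from the tests. As a further division from textbook knowledge, 46 members were counted as having a counterpart in the bacterial ribosome and 31 as specific to mitochondria. Mrpl55 was put in the first class and Mrps18a and Mrps18b in the second, and these placements are uncertain.

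Mitochondrial ribosomes sit at the inner membrane and translate the few proteins that mitochondrial DNA encodes, all of them core subunits of the respiratory chain and the ATP synthase. Their RNA comes from mitochondrial DNA, but every protein of the ribosome is encoded in the nucleus, made in the cytosol and imported, so the nuclear genes have to be expressed in step with each other and with the factors that copy and read mitochondrial DNA. In the intestine, the dividing cells at the crypt base carry the receptor EphB2 at a high level, and the level falls as cells move up and differentiate.

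Intestines of C57BL/6 mice, 6 days after birth (P6), gave the cells, which an EphB2 antibody split into a positive and a negative fraction. WT mice were wild type and KO mice lacked IκBα, the inhibitor of NF-κB that the gene Nfkbia encodes. Each of the 4 groups of genotype and fraction had 2 libraries, except KO EphB2-positive cells, which had 3. All came from the intestine as a whole, the fractions are defined by 1 surface protein and not by cell type, and the labels give neither the driver of the deletion nor whether each library is 1 animal. The p-values therefore measure the spread between these libraries, which may be technical in part.

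The 9 libraries had 1503972 to 2074076 reads in genes, and the members took 0.276% to 0.520% of them. Nfkbia had 0 reads in each of the 5 KO libraries and 47 to 163 in the 4 WT libraries. Levels are given as CPM, reads per 1000000 reads of the library total after TMM scaling, and 3 reads corresponded to 1.37 to 2.00 CPM. Ephb2 itself was at 142 and 160.3 CPM in WT EphB2-positive cells, 171 to 183 CPM in KO EphB2-positive cells, 125 and 66.8 CPM in WT EphB2-negative cells and 30.7 and 34.4 CPM in KO EphB2-negative cells. WT EphB2-negative replicate 1 stood apart from its group: over all genes tested its log2 CPM correlated at r = 0.935 with both WT EphB2-positive libraries and at r = 0.853 with WT EphB2-negative replicate 2. Counts over the members and the gene lists in the comparisons that use that library are given with and without it. Summed over 11 pan-leukocyte markers, the level was 63.1 to 132 CPM in the EphB2-positive libraries and WT EphB2-negative replicate 1, but 1133 CPM in WT EphB2-negative replicate 2 and 1595 and 1302 CPM in KO EphB2-negative cells. Ptprc, which marks all leukocytes, was at 0 CPM in 4 of the 5 EphB2-positive libraries.

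Every member was detected in every library. The lowest count was 18 reads, in a KO EphB2-negative library. Per kb of transcript, the mean level over the 9 libraries ran from 6.90 to 163 CPM per kb, a 23.6-fold range, with a median of 41.6 CPM per kb. The highest were Mrpl12, part of the stalk of the large subunit and known to bind the mitochondrial RNA polymerase, at 163 CPM per kb, Mrpl52 at 136 and Mrpl30 at 135. The lowest were Mrps25 at 6.9, Mrpl32 at 11 and Mrpl1 at 11.1 CPM per kb. Mrps25 shares 69.8% of its exon bases with Nr2c2 on the opposite strand, and the strand setting of the counting is not given in the sources used here, so its reads are uncertain. The same holds for Mrpl53 and Mrps34, which also share over 50% of their exon bases with other genes, while 32 members share at least 1 exon base. Mrpl48, Mrpl23 and Mrps36 have pseudogenes named after them that could take some of their reads.

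Summed over the 77 members, the level was 4747 and 4679 CPM in WT EphB2-positive cells, 4866 and 3100 in WT EphB2-negative cells, 5071, 5052 and 4947 in KO EphB2-positive cells and 3875 and 3384 in KO EphB2-negative cells. The 5 EphB2-positive libraries lay close together, and in WT the first EphB2-negative library was at their level and the second was the lowest of the 9. The ratio of the EphB2-positive to the EphB2-negative group mean was 1.38 in KO and 1.18 in WT. Between genotypes, the ratio of KO to WT was 1.07 in EphB2-positive cells and 0.911 in EphB2-negative cells. By plain CPM, without TMM scaling, these ratios were 1.64 in KO and 1.21 in WT between the sorts and 0.983 and 0.725 between genotypes, so the direction between genotypes in EphB2-positive cells turned with the scaling. The 2 classes by name kept a similar proportion: the sum of the Mrps genes was 0.479 to 0.558 of that of the Mrpl genes in the 9 libraries. Name and subunit differ in part, for example for Mrps18a and Mrps36, as given below, and not every such case is listed. WT EphB2-negative replicate 2 held the lowest value of 37 of the 77 members, and KO EphB2-negative replicate 2 that of 20. In sorted bulk samples, fewer cells of a type and less RNA per cell cannot be told apart.

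**Figure D1:**
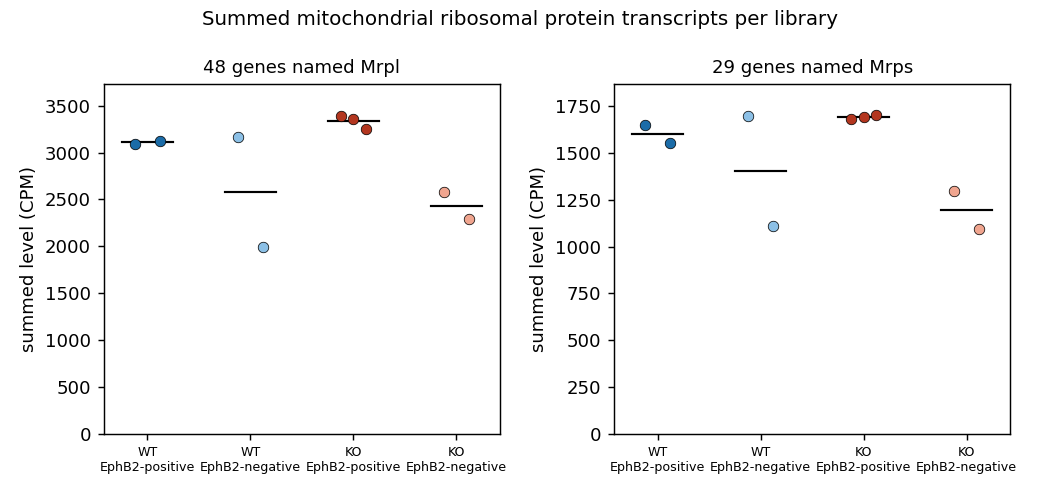
Summed level in CPM (vertical axis) of the 48 Mrpl genes (left) and the 29 Mrps genes (right) in each library, with a point for each library and a line at the mean of each of the 4 groups. In both panels the KO EphB2-negative libraries lie below all EphB2-positive libraries, and the 2 WT EphB2-negative libraries lie far apart.

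The largest difference over the members was between the sorts in KO. Of 77 members, 31 were higher in EphB2-positive than in EphB2-negative KO cells and 2 were lower at an adjusted p under 0.05 (called), by edgeR's quasi-likelihood test adjusted over all 11577 genes tested. Of all genes tested, 26.4% were called higher and 29.2% lower in that comparison. The median log2 fold change of the members was 0.49, a 1.4-fold difference, and that of all genes was -0.02. Of the members, 63 had a positive and 14 a negative log2 fold change. In 50 members every EphB2-positive library was above every EphB2-negative library, and in 7 it was the reverse, where 37.7% and 39.5% of all genes did so.

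Mrps27, a small subunit protein with an RNA-binding repeat fold (chromosome 13, 99344786 to 99415562, plus strand, GRCm38), had the largest difference. It stood at 70.7, 69.5 and 70.4 CPM in KO EphB2-positive cells and at 30.1 and 14.6 in KO EphB2-negative cells. The WT libraries were at 43.7 and 49.3 CPM in EphB2-positive and 47.9 and 27.6 in EphB2-negative cells, so the KO EphB2-positive values were the highest of the 9. Its log2 fold change between the sorts in KO was 1.65 ± 0.31 (SE; edgeR adjusted p = 0.0017). Mrps22, another mitochondria-specific small subunit protein, whose loss in humans causes a respiratory chain disease (chromosome 9, 98588730 to 98601660, minus strand), was at 56.7, 58.6 and 49.9 CPM in KO EphB2-positive and 28.2 and 11.5 in KO EphB2-negative cells. The 2 KO EphB2-negative libraries differed from each other by more than 2-fold for both genes, yet neither reached the EphB2-positive values. For Mrps22 the log2 fold change was 1.47 ± 0.39 (edgeR adjusted p = 0.011).

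In the large subunit the leading members were Mrpl38, Mrpl44, Mrpl19 and Mrpl50. Mrpl38, a mitochondria-specific protein, was at 88.8, 94.3 and 69.4 CPM in the positive and 32.6 and 38.2 in the negative fraction of KO cells, a log2 fold change of 1.25 ± 0.28 (edgeR adjusted p = 0.0043). Mrpl44 has the fold of a double-strand ribonuclease, and it was at 60.1, 61.4 and 50.9 against 25.6 and 24.8 CPM, a log2 fold change of 1.19 ± 0.39 (edgeR adjusted p = 0.029). For Mrpl19, the counterpart of a bacterial protein at the interface of the subunits, the values were 76.7, 89 and 62.7 against 37.1 and 30.6 CPM and the log2 fold change was 1.17 ± 0.24 (edgeR adjusted p = 0.0025). Mrpl50 (chromosome 4, 49512596 to 49521093, minus strand) was at 97.4, 79.5 and 92 against 37.8 and 43.9 CPM, with a log2 fold change of 1.13 ± 0.17 (edgeR adjusted p = 0.00053). In each of the 4 genes every EphB2-positive value lay above every EphB2-negative value in KO.

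The 2 members that were lower in KO EphB2-positive cells both carry the Mrps name. Mrps21, a small subunit protein with a bacterial counterpart (chromosome 3, 95862634 to 95871519, minus strand), was at 34, 41.4 and 41.1 CPM in EphB2-positive and 72.9 and 52.2 in EphB2-negative KO cells, a log2 fold change of -0.68 ± 0.20 (edgeR adjusted p = 0.017). Mrps36 was at 33.4, 41.4 and 25.7 against 51.8 and 55.4 CPM, a log2 fold change of -0.67 ± 0.23 (edgeR adjusted p = 0.029). Despite its name, the Mrps36 protein is known as a subunit of the oxoglutarate dehydrogenase complex of the citric acid cycle rather than of the ribosome. In WT the Mrps36 values ran the same way, 50.1 and 38 CPM in EphB2-positive and 57.1 and 68.7 in EphB2-negative cells, with a log2 fold change of -0.51 ± 0.24 that was not called (edgeR adjusted p = 0.19).

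By role, members at the peptidyl transferase centre, the stalk and the exit tunnel can be set side by side in KO. Mrpl3, a protein near the peptidyl transferase centre, was at 101, 115 and 105 CPM in EphB2-positive and 49.3 and 49 in EphB2-negative KO cells. Its log2 fold change was 1.12 ± 0.16 (edgeR adjusted p = 0.00036). At the stalk, Mrpl11 was called higher, with 68.7, 62.9 and 64.8 against 39.7 and 32.5 CPM (log2 fold change 0.86 ± 0.25, edgeR adjusted p = 0.016). Its partners at the stalk, Mrpl12 and Mrpl10, had log2 fold changes of 0.57 and 0.34 that were not called (edgeR adjusted p = 0.060 and 0.087). At the exit tunnel, Mrpl22 was called higher, with 28.7, 40.9 and 34.4 against 16 and 16.6 CPM (log2 fold change 1.1 ± 0.26, edgeR adjusted p = 0.0054), while Mrpl45, which ties the ribosome to the inner membrane, had a log2 fold change of 0.49 and Mrpl23 one of 0.05, both not called. Mrpl22 was chosen after its values were seen, and not every protein of these sites is given. Among others of these sites, Mrpl27, Mrpl24 and Mrpl4 were not called. In KO, Mrpl27 was at 42, 46.2 and 42.2 CPM in EphB2-positive and 65.3 and 49 in EphB2-negative cells. Mrpl24 was at 32.7, 38.6 and 39.6 against 35.8 and 39.5 CPM, and Mrpl4 at 82.1, 80 and 66.3 against 94.1 and 80.9 CPM. Mrpl18, which binds RNA in the central protuberance, was called higher at 0.66 (edgeR adjusted p = 0.044).

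In the small subunit, Mrps2 (66.7, 71.9 and 76.1 against 30.1 and 39.5 CPM) and Mrps5 (109, 116 and 95.1 against 66.5 and 57.3 CPM) were called higher in KO EphB2-positive cells, with log2 fold changes of 1.04 and 0.78 (edgeR adjusted p = 0.0027 and 0.016). Mrps12, at the decoding centre, was not called, at 28.7, 38.1 and 32.9 against 37.1 and 31.8 CPM and a log2 fold change of -0.05. Mrps7, which sits in the head of the subunit, was at 92.8, 87.6 and 80.2 against 88.3 and 66.9 CPM, with overlapping libraries. The 3 Mrps18 paralogs differed: Mrps18b had a log2 fold change of 0.97 (edgeR adjusted p = 0.0021), while Mrps18a, which is built into the large subunit, was at 0.03 and Mrps18c at -0.13, both not called. Mrps34 was called higher at 0.54 (edgeR adjusted p = 0.026), and Mrps24, Mrpl41 and Mrpl47 had log2 fold changes of 0.59, 0.49 and 0.83 that were not called. Among all 13 mitochondria-specific Mrps members, 8 were called higher and 1 lower, and among the 16 with a bacterial counterpart, 4 higher and 1 lower. For the Mrpl genes the counts were 8 of 18 higher and 11 of 30 higher, with none lower. Over all genes 26.4% were called higher and 29.2% lower, and the bacterial class of the Mrps genes was near the first share.

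**Figure D2:**
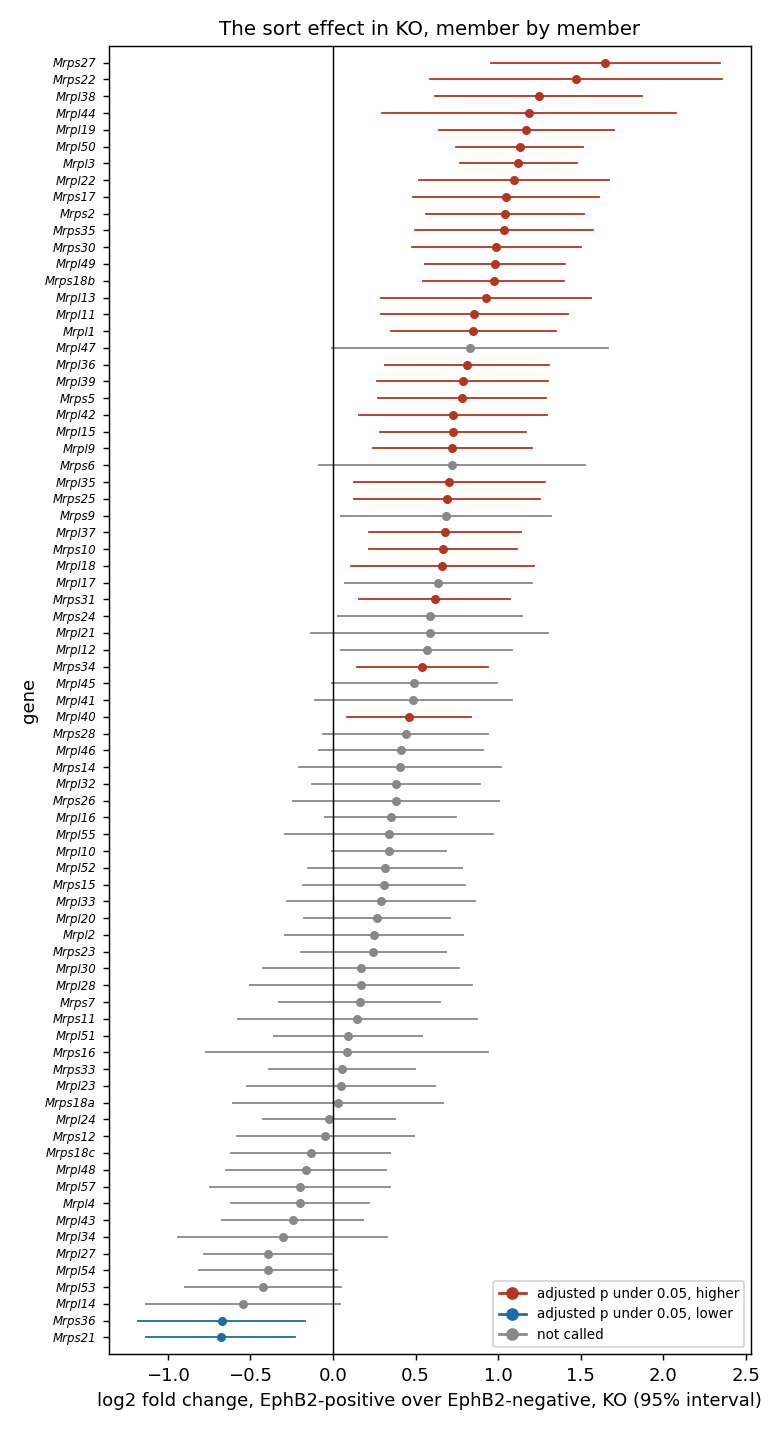
Log2 fold change of EphB2-positive over EphB2-negative KO cells (horizontal axis) for each of the 77 members, ordered by size, with its 95% interval as a line. Red marks the 31 members called higher, blue the 2 called lower (Mrps21 and Mrps36), and grey the members that were not called. Mrps27 is at the top at 1.65.

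Markers of other cells and of division moved with the sort. In KO, all 12 cell cycle markers and all 11 stem cell markers were called higher in EphB2-positive cells, and all 12 absorptive enterocyte markers and all 11 pan-leukocyte markers were called lower. The cell cycle markers summed to 3689 to 3746 CPM in KO EphB2-positive cells and to 864 and 702 CPM in KO EphB2-negative cells. When the fit held a pan-leukocyte score as covariate, none of the 33 called members kept its call in the same direction: 21 turned sign and 12 were no longer called, 2 members in all were called lower, and the median log2 fold change was -0.70. With the cell cycle score the count was 3, all lower, and the median -0.69. The shares of all genes called in these fits are not given here, so the loss of calls is not read as particular to the members. Both scores separate the sorts, so sort, cell type and division cannot be told apart here. Without KO EphB2-negative replicate 2 the count fell to 11 higher and 2 lower, where 36.7% of all genes were called in either direction.

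Promoter sequences were read for the 68 of 77 members that matched the RefSeq promoter table (GRCm38.p6), which gives 250 bases before to 50 bases after each start. On both strands, the motif CCGGAAG, bound by ETS family factors, was found in 25 of the 68 (36.8%), in 20.8% of the tested genes in that table and in 9.93% of all its genes. The motif AAGATGGC, bound by YY1, was found in 12 of 68 members (17.6%), 5.51% of tested genes and 3.19% of all genes. For the motif of NRF1, the nuclear respiratory factor, the shares were 4.41%, 2.38% and 1.07%, and 34 of the 68 members held the ETS or the YY1 motif. The GC box GGGCGG was in 34 of 68 members, 68.6% of tested genes and 38.2% of all genes, the TATA box TATAAA in 7.35%, 8.90% and 15.7%, and the E-box CACGTG in 7.35%, 11.9% and 8.09%. Of the 25 matched members that were higher in EphB2-positive KO cells, 6 (24.0%) held the ETS motif, and of the other 43 matched members 19 (44.2%) did. A match is a description of the letters and shows no binding.

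The stretches just before the start of 5 members are printed because these members differ in how they moved: Mrps27, Mrps22 and Mrps2 were higher in KO EphB2-positive than EphB2-negative cells, Mrps36 was lower, and Mrpl20 differed between the genotypes instead. Each runs 5′ to 3′ on the strand of the gene and ends at the base before the RefSeq start. Capitals mark any of the 6 motifs. The Mrps27 stretch (chr13:99344706-99344785, plus strand) is 80 bases long because an exon of the neighbouring gene begins there, and the others are 150 bases long: Mrps22 (chr9:98601680-98601829, minus strand), Mrps2 (chr2:28467916-28468065, plus strand), Mrps36 (chr13:100744660-100744809, minus strand) and Mrpl20 (chr4:155802728-155802877, plus strand).
Mrps27: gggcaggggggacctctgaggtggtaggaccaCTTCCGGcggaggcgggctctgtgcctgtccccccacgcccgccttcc
Mrps22: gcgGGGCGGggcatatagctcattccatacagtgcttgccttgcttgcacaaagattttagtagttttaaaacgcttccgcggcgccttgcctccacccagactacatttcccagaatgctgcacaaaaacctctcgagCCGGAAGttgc
Mrps2: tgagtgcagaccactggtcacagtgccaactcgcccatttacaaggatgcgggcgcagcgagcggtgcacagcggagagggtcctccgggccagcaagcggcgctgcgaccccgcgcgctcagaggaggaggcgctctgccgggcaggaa
Mrps36: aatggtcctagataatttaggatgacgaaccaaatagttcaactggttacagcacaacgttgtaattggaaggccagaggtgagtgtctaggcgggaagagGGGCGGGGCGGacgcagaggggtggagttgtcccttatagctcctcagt
Mrpl20: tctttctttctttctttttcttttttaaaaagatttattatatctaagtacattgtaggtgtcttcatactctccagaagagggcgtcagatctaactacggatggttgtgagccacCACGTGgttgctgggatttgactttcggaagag
The ETS motif begins at position -48 before Mrps27, where it lies on the opposite strand, and at position -11 before Mrps22, where -1 is the base before the start. Mrps22 also has a GC box at -147, Mrps36 has overlapping GC boxes at -49 and -44, and Mrpl20 has an E-box at -33. None of the 6 motifs is in the Mrps2 stretch.

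Transcript length went with the size of the sort difference in KO. Across the 77 members, which share the same libraries, the Spearman correlation of transcript length with the log2 fold change was 0.47, and across the 11265 tested genes with a length it was 0.07. Among the 26 longest members (over 1602 bases) 15 were called higher and none lower, with a median log2 fold change of 0.72. Among the 26 shortest (up to 938 bases) 5 were called higher and 2 lower, with a median of 0.22. Over all tested genes in these length classes, 28.2% of the long and 15.2% of the short genes were called higher. With offsets that remove the dependence of each library on length, chosen after seeing the data, 37 members were called higher and 0 lower. In that fit 43 had an unadjusted p under 0.05, and Mrps21 and Mrps36, both short, were no longer called. The share of all genes called in that fit is not given here, so the count is not read as a gain for the members.

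**Figure D3:**
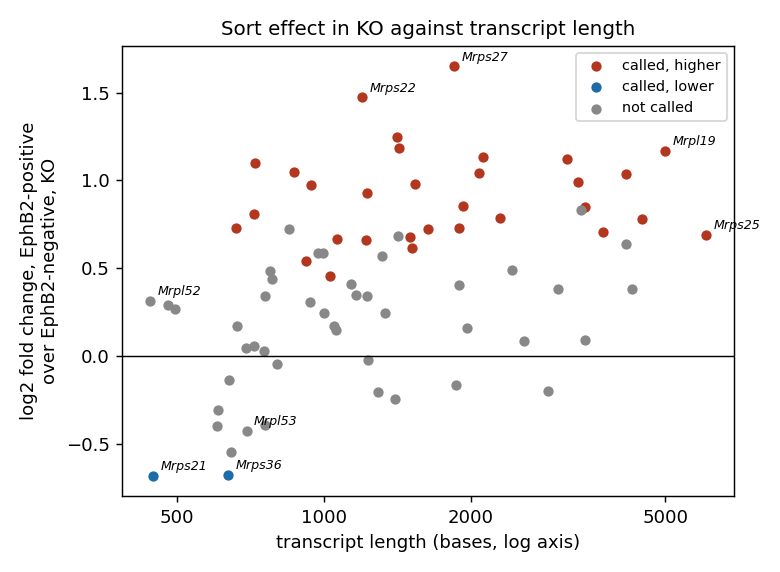
Transcript length in bases on a log axis (horizontal) against the log2 fold change of EphB2-positive over EphB2-negative KO cells (vertical), with a point for each of the 77 members and 8 labelled. Red points are members called higher, blue called lower and grey not called. Both members called lower are short, and 15 of the 26 longest were called higher.

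In WT the same comparison of the sorts called 1 member, Mrpl3, as higher and 0 as lower with edgeR, where 0.656% of all genes were called higher and 3.77% lower (4.43% in either direction). At an unadjusted p under 0.05 there were 5 members with edgeR, and DESeq2 called 0 of them, with 2 under that unadjusted p. Mrpl3 was at 83.5 and 81.4 CPM in EphB2-positive and 55.7 and 44 in EphB2-negative WT cells, a log2 fold change of 0.72 ± 0.17 (edgeR adjusted p = 0.043). Its 4 values in WT do not overlap between the sorts, and neither do its 5 values in KO, but the WT call was lost under 12 of 17 alternatives. The median log2 fold change of the members in WT was 0.24, with 65 positive and 12 negative. In 20 members both EphB2-positive libraries were above both EphB2-negative libraries and in 3 below, where 26.5% and 28.0% of all genes did so. Furthest against that median were Mrps36, given above, and Mrpl32, at 33.9 and 29.6 against 45.2 and 29 CPM (log2 fold change -0.23 ± 0.24, edgeR adjusted p = 0.55).

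The WT result depends on which EphB2-negative library is used. Without WT EphB2-negative replicate 1, which lies between the sorts, 39 members were called higher and 1 lower (Mrps36), the median was 0.60, and 41.1% of all genes were called. The overlap of these members with the 31 called higher in KO was not computed over all genes. It is therefore not read as agreement between the genotypes. The largest values in that fit included Mrpl21, Mrpl44, Mrpl11 and Mrpl38, the last at 1.2 ± 0.23 (SE; edgeR adjusted p = 0.00032). Without WT EphB2-negative replicate 2, 0 members were called by edgeR, 5 had an unadjusted p under 0.05 and the median was -0.06. A single library then stands for WT EphB2-negative cells in either fit and is assumed to vary like the other groups. The pan-leukocyte sum of the 2 libraries was 132 and 1133 CPM and the cell cycle sum 2801 and 1147 CPM.

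**Figure D4:**
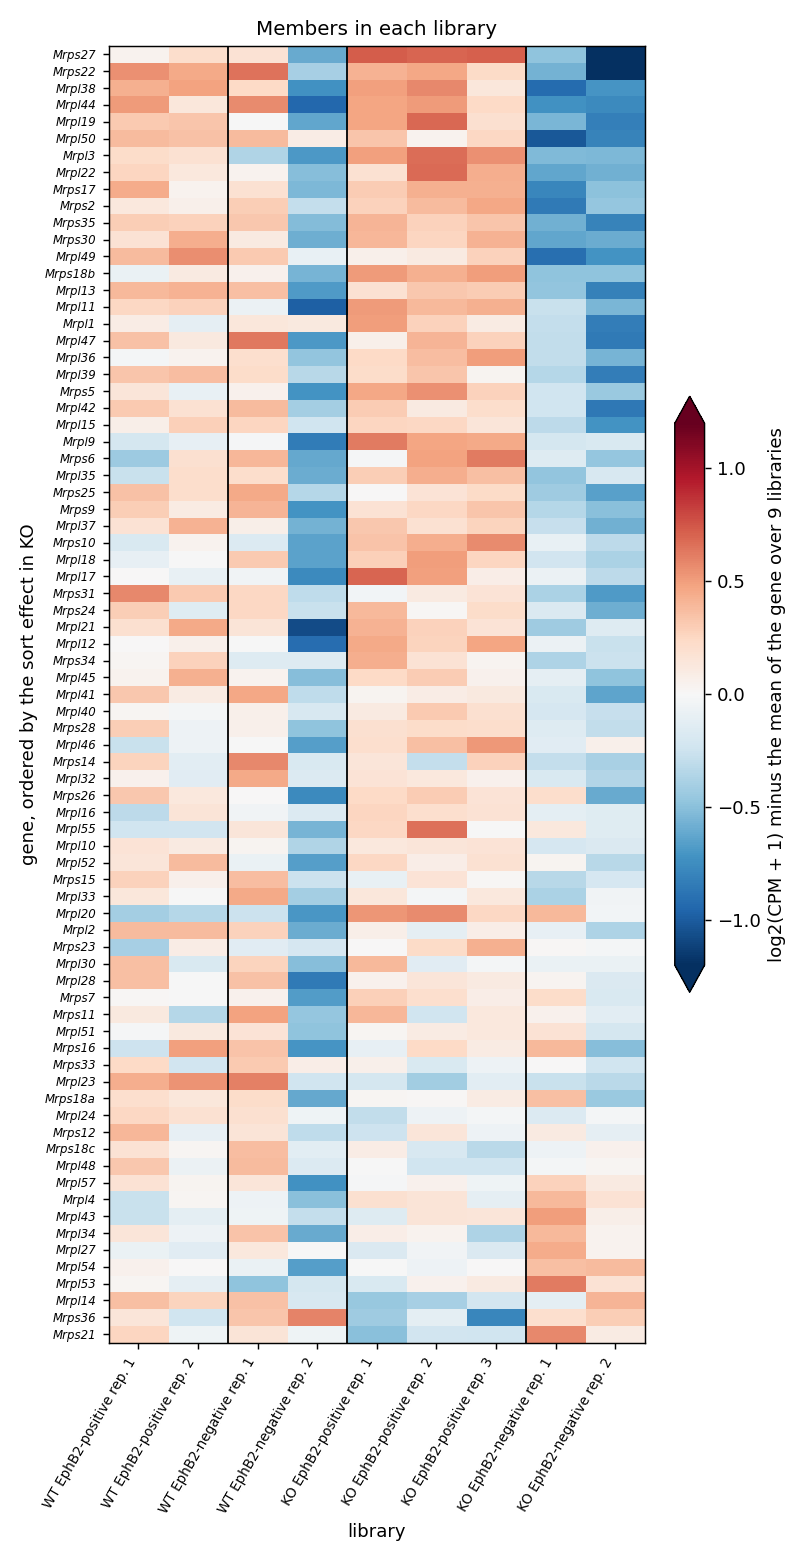
Each row is 1 of the 77 members, ordered by the sort effect in KO, and each column is 1 of the 9 libraries. The colour gives log2(CPM + 1) minus the mean of that gene over the libraries, red above and blue below, and values past 1.2 in either direction take the end colour. The columns of WT EphB2-negative replicate 2 and both KO EphB2-negative libraries are mostly blue in the upper rows, while WT EphB2-negative replicate 1 resembles the EphB2-positive columns.

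Most members differed little between KO and WT in EphB2-positive cells. With edgeR, 1 member was higher in KO (Mrpl20) and 0 were lower, where 7.01% of all genes were called higher and 8.07% lower (15.1% in either direction), and 8 members had an unadjusted p under 0.05. DESeq2 called 2 higher. The median log2 fold change was 0.03 over the members and -0.01 over all genes. In 21 members every KO library was above every WT library and in 10 below, where 26.9% and 28.6% of all genes did so. For 68 of 77 members the 95% interval of the difference lay within 2-fold in both directions, as it did for 51.2% of all genes.

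Mrpl20, the counterpart of a bacterial protein that is needed early in the assembly of the large subunit (chromosome 4, 155802878 to 155809975, plus strand), stood at 47.6 and 49.8 CPM in WT EphB2-positive cells, 53 and 38.7 in WT EphB2-negative cells, 92.1, 94.3 and 75.6 in KO EphB2-positive cells and 83.2 and 61.8 in KO EphB2-negative cells. Every KO library was above every WT library. Its log2 fold change was 0.84 ± 0.20 in EphB2-positive cells and 0.66 ± 0.22 in EphB2-negative cells (edgeR adjusted p = 0.021 and 0.047). Between the sorts it was at 0.27 in KO and 0.09 in WT, and was not called in either. Mrpl20 was the sole member called between genotypes in both fractions, although its calls were lost under 4 of 16 alternatives in EphB2-positive and 12 of 16 in EphB2-negative cells.

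The lowest values in KO against WT EphB2-positive cells were those of Mrpl23, at the exit tunnel, and Mrpl14, a protein of the subunit interface. Mrpl23 was at 57 and 61.2 CPM in WT and 36, 31 and 38 in KO EphB2-positive cells, a log2 fold change of -0.76 ± 0.24 (edgeR adjusted p = 0.059). Mrpl14 was at 29 and 27.1 against 16, 16.7 and 19 CPM, a log2 fold change of -0.7 ± 0.25 (edgeR adjusted p = 0.098). For both genes the WT and KO libraries do not overlap, but neither passed the threshold with all libraries. Leaving out WT EphB2-negative replicate 1, which enters this comparison through the shared spread, raised the count to 11 higher and 2 lower, the 2 being Mrpl23 and Mrpl14, where 28.3% of all genes were called. Leaving out WT EphB2-negative replicate 2 gave 11 and 2 as well, with 29.1% of all genes.

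In EphB2-negative cells 3 members were higher in KO than in WT and 4 were lower, where 13.7% of all genes were called higher and 16.2% lower (29.9% in either direction). In 6 members both KO libraries were above both WT libraries and in 19 below, where 28.7% and 34.6% of all genes did so. With the size factors of DESeq2 in place of TMM the split was 4 higher and 3 lower, and with length offsets it was 1 higher and 4 lower. The shares of all genes called in these fits are not given here. The median log2 fold change was -0.16 over the members and -0.09 over all genes. Lower in KO were Mrps22, Mrpl50, Mrpl49 and Mrps2, which were all also among those higher in EphB2-positive KO cells, and the 2 comparisons share the KO EphB2-negative libraries. Markers moved with genotype in this fraction too: 7 of 12 cell cycle and 8 of 11 stem cell markers were called lower in KO, and all 11 pan-leukocyte markers had a positive log2 fold change (median 1.56) with none called. The cell cycle markers summed to 2801 and 1147 CPM in WT and to 864 and 702 CPM in KO EphB2-negative cells, and their part in the members' values was not tested apart from the covariate fits.

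Mrpl50, a mitochondria-specific protein of the large subunit, was at 101 and 99.2 CPM in WT EphB2-positive cells, 101 and 82.3 in WT EphB2-negative cells, 97.4, 79.5 and 92 in KO EphB2-positive cells and 37.8 and 43.9 in KO EphB2-negative cells. The 2 KO EphB2-negative values were the lowest of the 9, and the 3 KO EphB2-positive values lay below both WT EphB2-positive values but overlapped with WT EphB2-negative cells. Its log2 fold change between genotypes was -1.16 ± 0.18 in EphB2-negative cells (edgeR adjusted p = 0.0023) and -0.16 ± 0.16 in EphB2-positive cells (edgeR adjusted p = 0.55). Mrpl49, also mitochondria-specific, was at 72.6 and 54.7 CPM in WT and 30.7 and 35 in KO EphB2-negative cells, a log2 fold change of -0.95 ± 0.20 (edgeR adjusted p = 0.0084). For Mrps22 the values were 67.1 and 31.9 against 28.2 and 11.5 CPM (-1.32 ± 0.42, edgeR adjusted p = 0.040), and for Mrps2 67.6 and 45 against 30.1 and 39.5 CPM (-0.7 ± 0.23, edgeR adjusted p = 0.046).

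Higher in KO EphB2-negative cells were Mrpl53, Mrpl54 and, as given above, Mrpl20. Mrpl54 (chromosome 10, 81264713 to 81266934, minus strand) was at 46.1 and 30.5 CPM in WT and 62.7 and 63.7 in KO, a log2 fold change of 0.72 ± 0.21 (edgeR adjusted p = 0.027). Mrpl53 was at 21.5 and 26.1 against 47.3 and 34.4 CPM, a log2 fold change of 0.78 ± 0.23 (edgeR adjusted p = 0.032). Both proteins are mitochondria-specific parts of the large subunit, and Mrpl53 shares 88.0% of its exon bases with other genes, so its reads are uncertain.

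Without WT EphB2-negative replicate 1 the calls in EphB2-negative cells were 10 higher and 2 lower, the median turned to 0.20 and 28.9% of all genes were called. Mrpl50, Mrpl49, Mrpl54 and Mrpl20 were still called in that fit, while Mrps22 had a log2 fold change of -0.69 ± 0.34 (edgeR adjusted p = 0.14), Mrps2 of -0.37 ± 0.23 (adjusted p = 0.24) and Mrpl53 of 0.64 ± 0.28 (adjusted p = 0.088). Leaving out WT EphB2-negative replicate 2 instead gave 1 higher and 31 lower and a median of -0.43, where 48.8% of all genes were called. The sign of the median between genotypes in EphB2-negative cells thus turns with the WT library that is kept.

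**Figure D5:**
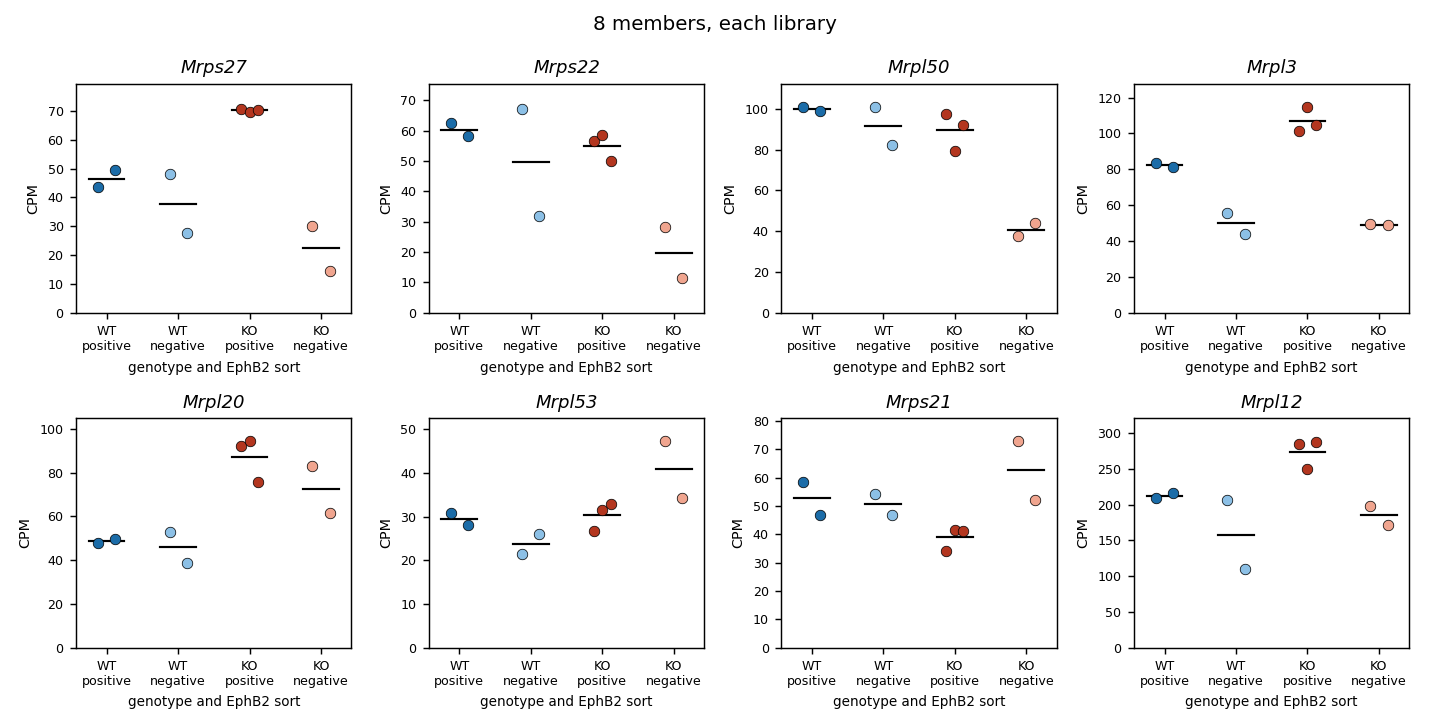
Level in CPM (vertical axis, from 0) of 8 members in each library, with a point for each library and a line at the mean of each of the 4 groups, which are given by genotype and EphB2 sort. Mrps27, Mrps22 and Mrpl50 are low in KO EphB2-negative cells, and Mrpl3 is low in the EphB2-negative cells of both genotypes. Mrpl20 is higher in every KO than in every WT library, and Mrps21 and Mrpl53 are highest in a KO EphB2-negative library.

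The test of whether the genotype difference itself differed between the fractions called 1 member, Mrpl50, with a difference of 1.01 ± 0.24 on the log2 scale (edgeR adjusted p = 0.029), where 6.54% of all genes were called with a positive and 5.81% with a negative difference (12.4% in all). At an unadjusted p under 0.05 there were 9 members with edgeR, and DESeq2 called 1. Next by p were Mrps2 at 0.99 ± 0.31 (edgeR adjusted p = 0.062), Mrpl1 at 0.99 ± 0.32 (0.068), Mrps27 at 1.35 ± 0.44 (0.069) and Mrpl54 at -0.77 ± 0.28 (0.096). Only Mrpl54 of these had a negative difference. The call of Mrpl50 was lost under 9 of 16 alternatives, with adjusted p up to 0.11. Without WT EphB2-negative replicate 1 there were 2 positive and 5 negative calls, where 19.2% of all genes were called, and the median over members moved from 0.31 to -0.09. Without WT EphB2-negative replicate 2 there were 29 positive calls, where 33.4% of all genes were called, and a median of 0.54.

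Proteins that belong to the mitochondrial ribosome but carry other names were split. The counts for these and the following lists are to be read against 26.4% of all genes higher and 29.2% lower between the sorts in KO, 13.7% and 16.2% between genotypes in EphB2-negative cells and 7.01% and 8.07% in EphB2-positive cells. Of the 6 measured, 2 were higher and 1 lower in EphB2-positive KO cells. Ptcd3, an RNA-binding repeat protein of the small subunit, was at 123 and 127 CPM in WT EphB2-positive cells, 118 and 76.5 in WT EphB2-negative cells, 186, 171 and 122 in KO EphB2-positive cells and 46.1 and 47.8 in KO EphB2-negative cells. The KO EphB2-negative values were the lowest, and its log2 fold change between the sorts in KO was 1.76 ± 0.24 (edgeR adjusted p = 0.00031). Gadd45gip1, a large subunit protein, was at 50.05, 45.2 and 44.7 against 28.8 and 22.9 CPM in KO (log2 fold change 0.85 ± 0.22, edgeR adjusted p = 0.0093).

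The factors that build the ribosome and modify its RNA were split. Of 30 measured, 13 were higher and 2 lower in EphB2-positive KO cells, 8 lower and 3 higher in KO than in WT EphB2-negative cells, and 1 higher in KO EphB2-positive cells. The 3 higher of 30 are a smaller share than that over all genes. Leaving out that first WT EphB2-negative library, 3 were higher and 5 lower in KO EphB2-negative cells, where 14.4% and 14.6% of all genes were, and 4 higher and 2 lower in KO EphB2-positive cells, where 14.2% and 14.1% of all genes were. Fastkd2, which binds the RNA of the large subunit, was at 55.5 and 53.8 CPM in WT EphB2-positive cells, 64.8 and 41.6 in WT EphB2-negative cells, 100.1, 85.7 and 86.4 in KO EphB2-positive cells and 28.2 and 19.7 in KO EphB2-negative cells. It was the gene higher in KO EphB2-positive cells, at 0.73 ± 0.21 (edgeR adjusted p = 0.048), and it was lower in KO EphB2-negative cells, at -1.15 ± 0.26 (edgeR adjusted p = 0.011; -0.80 without that WT library, adjusted p = 0.024). Gtpbp10, a GTPase of large subunit assembly, was at 59.4, 54.8 and 49.9 CPM in KO EphB2-positive and 14.7 and 15.9 in KO EphB2-negative cells (1.83 ± 0.26, edgeR adjusted p = 0.00039). Tfb1m, which methylates the RNA of the small subunit, was at 14.2 and 13.8 CPM in WT EphB2-positive cells, 12.8 and 17.4 in WT EphB2-negative cells, 6.67, 7.62 and 7.71 in KO EphB2-positive cells and 3.84 and 1.91 in KO EphB2-negative cells. All 5 KO values were below all WT values, though the 1.91 CPM rests on 3 reads. In EphB2-negative cells the log2 fold change was -2.37 ± 0.44 (edgeR adjusted p = 0.0048), and it was -2.57 without that WT library. Nsun4, another methyltransferase of that RNA, was the gene called between the sorts in WT, at 33.9 and 34 CPM in EphB2-positive and 58.9 and 72.1 in EphB2-negative cells (-0.95 ± 0.20, edgeR adjusted p = 0.037; -1.09 without WT EphB2-negative replicate 1). Without that library 8 assembly factors were higher and 1 lower between the sorts in WT, where 18.0% and 23.1% of all genes were.

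Among 16 translation factors, 5 were higher and 2 lower in EphB2-positive KO cells, 2 were higher in KO than in WT EphB2-positive cells, and 2 were higher and 2 lower in KO EphB2-negative cells (3 and 0 without WT EphB2-negative replicate 1). The share higher between the sorts in KO was near that over all genes. Those higher in KO in both fractions were Gfm1, the elongation factor that moves the ribosome along the message, and Letm1, an inner membrane protein linked to the ribosome. Gfm1 was at 84 and 99.7 CPM in WT EphB2-positive cells, 82.6 and 63.4 in WT EphB2-negative cells, 188, 182 and 174 in KO EphB2-positive cells and 116 and 106 in KO EphB2-negative cells. Each KO group was above its WT counterpart, with log2 fold changes of 0.98 ± 0.16 in EphB2-positive and 0.61 ± 0.17 in EphB2-negative cells (edgeR adjusted p = 0.0034 and 0.027; 0.99 and 0.81 without WT EphB2-negative replicate 1). Letm1 rose in KO in both fractions, by 0.95 ± 0.17 and 1.53 ± 0.18 on the log2 scale (edgeR adjusted p = 0.0051 and 0.00056; 0.95 and 1.65 without that library). Mrrf, the ribosome recycling factor, was lower in KO EphB2-negative cells, at 11.5 and 16.6 against 40.6 and 24.7 CPM in WT (-1.22 ± 0.30, edgeR adjusted p = 0.015), a call that was lost without WT EphB2-negative replicate 1 (-0.81, adjusted p = 0.063).

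Of 17 mitochondrial tRNA synthetases, 9 were higher and 1 lower in EphB2-positive KO cells, and 3 were lower in KO than in WT EphB2-negative cells, about the share of all genes (1 higher and 2 lower without WT EphB2-negative replicate 1). Ears2, which charges the glutamate tRNA, was at 40.7, 40.00 and 38 CPM in KO EphB2-positive and 16.6 and 13.4 in KO EphB2-negative cells (1.39 ± 0.21, edgeR adjusted p = 0.00053). The gene that was lower was Lars2, which charges the leucine tRNA, with 823, 911 and 1105 against 1862 and 2617 CPM (-1.24 ± 0.23, edgeR adjusted p = 0.0014). Of 10 genes for the transcription and upkeep of mitochondrial DNA, 6 were higher and 1 lower in EphB2-positive KO cells and 5 were lower in KO EphB2-negative cells, but 2 without WT EphB2-negative replicate 1. Tfam, which packs mitochondrial DNA and starts its transcription, was at 107, 115 and 119.8 CPM in KO EphB2-positive and 42.2 and 45.2 in KO EphB2-negative cells (1.38 ± 0.20, edgeR adjusted p = 0.00046). For Peo1, the helicase of mitochondrial DNA, the values were 74.1, 48.1 and 49.4 against 10.9 and 9.55 CPM (2.47 ± 0.37, edgeR adjusted p = 0.00053).

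Of 14 genes for regulators of nuclear mitochondrial genes, 6 were higher and 5 lower in EphB2-positive KO cells, where 26.4% and 29.2% of all genes were. Esrra, a nuclear receptor that acts on respiratory genes, was at 116 and 104 CPM in WT EphB2-positive cells, 133 and 131 in WT EphB2-negative cells, 135, 130.5 and 129 in KO EphB2-positive cells and 319 and 312 in KO EphB2-negative cells. The 2 KO EphB2-negative values were more than 2-fold above all others, with a log2 fold change of 1.25 ± 0.14 against WT (edgeR adjusted p = 0.00045; 1.27 without WT EphB2-negative replicate 1). Mxd1, an antagonist of Myc, was at 277 and 353 CPM in KO EphB2-negative and 9.34, 16.2 and 12.3 in KO EphB2-positive cells (-4.61 ± 0.41, edgeR adjusted p = 7.2e-05). In EphB2-positive cells, Ppargc1b, a coactivator of respiratory genes, was higher in KO (15.7 and 18.7 CPM in WT, 40.04, 33.8 and 32.9 in KO; 1.04 ± 0.24, edgeR adjusted p = 0.016). Mycn was lower there, with 19.6 and 9.87 CPM in WT and 0.667, 0.952 and 1.54 in KO (edgeR adjusted p = 0.0021), the KO values being 1, 2 and 3 reads.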

How the data were processed

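RNA of the 9 sorted libraries was measured by polyA RNA sequencing after PCR amplification of the cDNA, per the labels' protocols. The deposited values are raw read counts per gene symbol that the authors made with HTSeq after alignment with Bowtie2 to mm10, with CASAVA 1.4 and FastQC also listed, per the submitters' processing notes. Neither the annotation nor the strand setting is known from the labels or files used here. PCR copies are not marked in the counts, so floors count reads and not molecules. The intervals come from the edgeR fit and include the spread between libraries. Reads without a feature or ambiguous, 11.9% to 16.8% of a library, stayed out of totals and tests.

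Counts were filtered with filterByExpr, scaled by TMM and fitted with edgeR 4.0.16 (robust quasi-likelihood, R 4.3.3) with a mean per group over all 9 libraries (5 residual degrees of freedom). P-values were adjusted by Benjamini-Hochberg over 11577 genes and called under 0.05. The script was tested on simulated data. DESeq2 1.42.0 was an alternative. Other alternatives were size factors, filters, fits on the compared libraries alone, marker scores as covariates, replicate blocks and leaving out each library. Lengths and positions came from GENCODE vM21 (GRCm38).

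The members and gene lists were chosen with earlier results of these data known. Members were named by these rules: up to 6 called members at each end of a comparison with a mean of at least 10 CPM in the higher group, a set by role, the extremes per kb, the 5 lowest p-values of the difference between fractions, and the 2 most against the median. From each other list, the 2 called genes of lowest p were named in each comparison.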

Additional observations from a re-analysis of the deposited data

Results flagged for a closer look

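In these genes the difference between KO and WT was not the same in the 2 fractions, by the edgeR test of that difference at an adjusted p under 0.05. Each value is the log2 fold change in EphB2-positive cells minus that in EphB2-negative cells. Among the members only Mrpl50 passed, at 1.01, and its call was lost under 9 of 16 alternatives. Of the other genes of the pathway, the assembly factors Fastkd2 (1.88) and Gtpbp10 (1.57), the small subunit protein Ptcd3 (1.4) and the RNA-binding protein Lrpprc (0.94) had positive values. For the genes of mitochondrial DNA, Tfam was at 1.03 and the topoisomerase Top1mt at 1.67. Among the regulators, the coactivator Pprc1 was at 2.1, while Esrra was at -1.0, Mxd1 at -2.74 and Mycn at -3.37, a fitted value that rests on 1 to 3 reads in each KO EphB2-positive library. In the fit without WT EphB2-negative replicate 1, Mrpl50 was at 0.86, Fastkd2 at 1.53, Gtpbp10 at 1.15, Ptcd3 at 1.06, Lrpprc at 0.67, Tfam at 0.67, Pprc1 at 1.65, Esrra at -1.0, Mxd1 at -2.15 and Mycn at -3.53, all still called, while Top1mt at 1.26 was not (edgeR adjusted p = 0.074). The leukocyte and cell cycle markers differ between the same libraries. With the leukocyte score as covariate Mrpl50 kept its call, and the part of the cell cycle markers in its value was not tested. For the other genes neither part was tested.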

How the results depend on the processing

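The members' sort difference in KO kept its positive median when any 1 library was left out (0.43 to 0.59), with 13 to 44 members called, the 13 without KO EphB2-negative replicate 2. With the leukocyte score as covariate the median was -0.70 and 2 members were called, and with the cell cycle score, an alternative chosen after seeing the data like the length offsets, -0.69 and 3. Under the leukocyte score these called members turned negative: Mrpl11 -0.76, Mrpl13 -0.84, Mrpl15 -0.14, Mrpl18 -0.98, Mrpl35 -0.73, Mrpl36 -0.28, Mrpl37 -0.42, Mrpl38 -0.51, Mrpl39 -0.18, Mrpl42 -0.61, Mrpl44 -1.51, Mrpl9 -0.76, Mrps10 -0.12, Mrps17 -0.20, Mrps18b -0.10, Mrps22 -0.33, Mrps25 -0.64, Mrps30 -0.25, Mrps31 -0.26, Mrps35 -0.44 and Mrps5 -0.57. In WT the sort median was -0.50 with the leukocyte and -0.27 with the cell cycle score, and -0.065 to 0.60 over the libraries left out. The WT count was 0 with DESeq2, with the compared libraries alone, with either score and with the replicate block, and 0 to 40 over the libraries left out.

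Between genotypes in EphB2-positive cells the count was 2 with DESeq2 size factors, with no filter and with DESeq2, 16 with the compared libraries alone, 13 with the leukocyte score, 11 with the cell cycle score, 5 with length offsets and 0 to 13 over the libraries left out. The median there was -0.042 with the cell cycle score and -0.0047 to 0.085 over the libraries left out, the -0.0047 without WT EphB2-positive replicate 2. In EphB2-negative cells the count was 4 with no filter, 3 with DESeq2, 0 with the compared libraries alone, 12 with the leukocyte score, 14 with the cell cycle score, 4 with the replicate block and 2 to 32 over the libraries left out. Its median was 0.25 with the leukocyte and 0.38 with the cell cycle score, and -0.43 to 0.20 over the libraries left out. For the difference between fractions the count was 6 with either score, 4 with length offsets, 0 with either block and 0 to 29 over the libraries left out, and the median -0.16 with the leukocyte and -0.34 with the cell cycle score and -0.094 to 0.54 over the libraries left out. The summed level by plain CPM was 5126 in WT and 5041 in KO EphB2-positive cells and 4238 in WT and 3072 in KO EphB2-negative cells, and without Mrpl12 it was 4500.4 in WT and 4749 in KO EphB2-positive cells. The cause of these shifts was not tested. Between the fits of this section the share of all genes called differed as well. The counts of called members are therefore not read as results about the members alone.

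Paired by replicate number, the deviations of the 2 fractions from their group means correlated at 0.12 in WT and at 0.035 and -0.064 in KO. Paired by the code in the names of the deposited tables, they correlated at 0.064 and 0.099 in KO, and the WT pairs were the same. The main fit used neither pairing. With the replicate block 29 members were called between the sorts in KO, and 29 with a block on the code in the names of the deposited tables. No called member kept its call under every alternative run. With 2 or 3 libraries a group, the 95% interval of a member reached a median of 0.49 to either side of its log2 fold change between genotypes in EphB2-positive cells and 0.56 in EphB2-negative cells. Smaller differences were not detectable for most members. Larger ones could be missed too, because a call needs an adjusted p under 0.05 and these intervals are not adjusted.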
